A study of Homo sapiens with 12 samples.

Results

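The genes described here were 10 cytokine signalling genes of 23459 gene IDs counted: the IL6-type cytokines IL6, LIF and IL11, the receptor chains IL6R, IL6ST, OSMR and LIFR, the feedback inhibitor SOCS3, the cytokine IL24 and the receptor IL7R. The list was written by name, with earlier results of these libraries known. IL24 was chosen on its difference between JUN and vector cells and IL7R on its interaction, so their values are given as a description with no test, and the tests below are those of the other 8 genes. All 10 passed the filter on low counts.

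IL6-type cytokines signal through receptor complexes that share the chain gp130, which is the product of IL6ST. Each ligand binds a partner chain, IL6R for IL6 or LIFR for LIF, while OSMR pairs with gp130 in the oncostatin M receptor. The complex activates JAK kinases and the transcription factor STAT3, and STAT3 switches on SOCS3, which in turn blocks gp130. In epithelia these cytokines take part in wound repair, the acute-phase response and inflammation.

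All libraries came from MCF10A, an immortalised breast epithelial line that does not form tumours, in which a doxycycline-inducible allele expresses YAP5SA, a form of the coactivator YAP that the Hippo kinases cannot inactivate. The cells carried an empty vector or a vector that overexpresses JUN, a subunit of the transcription factor AP-1, and received doxycycline (Dox, 100 ng/ml) or the solvent ethanol (EtOH). Each of the 4 groups (vector EtOH and vector Dox, JUN EtOH and JUN Dox) held 3 libraries, which the study calls biological replicates, and the cells of every group carried the inducible allele. The labels did not give the length of the induction, for which the study's methods describe less than 1 day at this dose, and doxycycline itself was present only in the induced groups, so its own effect and that of YAP5SA cannot be told apart. Cells were grown with hydrocortisone, insulin and EGF.

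Levels are given in CPM, counts scaled to the effective library size, as mean ± SD (n = 3). Total counts were 18594867 to 28993487 per library, and 3 counts corresponded to 0.107 to 0.15 CPM. The level of JUN was 47.6 ± 10.5 CPM without either factor (vector EtOH), 189.7 ± 4.15 with YAP5SA (vector Dox), 1279 ± 187 with JUN (JUN EtOH) and 1248 ± 92.3 with both (JUN Dox), and that of YAP1 was 179.4 ± 10.6, 236.5 ± 31.5, 234.4 ± 20.9 and 279.9 ± 79.3 CPM. Both rows may sum the endogenous transcript and the introduced one. All 11 markers of basal mammary epithelium lay at 1 CPM or more as a mean over the libraries. So did 3 of 5 luminal hormone-receptor markers (GATA3 highest at 19.4 CPM) and 4 of 7 fibroblast markers (PDGFRA highest at 111.1 CPM), but 0 of 5 endothelial markers. Of 12 immune cell markers, 10 lay under 1 CPM, PTPRC had 9 counts over all libraries and CD3E, CD3D, CD2 and LYZ had none. The sum of the immune list, carried by CD14 and CD68, was 54.3 to 59.2 CPM, 23.1 to 24.4, 87.3 to 102.7 and 52.3 to 72.6 CPM in these groups. The sum of the basal list was 11820 to 13170, 6938 to 8669, 14770 to 16360 and 10270 to 13200 CPM in the same order. The part of these shifts in the results below was not tested.

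The 5 comparisons were the induction in vector cells, the JUN vector without induction, the induction in JUN cells, the JUN vector with induction, and the interaction, which subtracts the log2 induction of vector cells from that of JUN cells. Differences were tested with edgeR's quasi-likelihood test and called at a Benjamini-Hochberg adjusted p under 0.05 over 14775 genes. YAP1 was not called on induction in vector cells (log2 0.40, SE 0.16, edgeR adjusted p 0.0819). It was not called in JUN cells either (log2 0.26, SE 0.16, edgeR adjusted p 0.308), where the libraries overlapped. The value in vector cells passed with only the libraries of the comparison (edgeR adjusted p 0.0384) and without JUN Dox replicate 1 or 3. Of the 8 IL6-type genes, the induction in vector cells raised 1 (LIF) and lowered 2 (IL6R, SOCS3), where 15.6% of all genes tested were called higher and 14.4% lower. The JUN vector without induction raised 4 (LIF, IL6R, OSMR, SOCS3) and lowered 1 (IL6), against 20.1% and 18.9% of all genes. The induction in JUN cells raised 2 (IL6, LIF) and lowered 3 (IL11, IL6R, SOCS3), against 11.2% and 10.3%. IL11 passed the filter mainly through JUN EtOH, its highest group, so its fall is counted with that limit. The JUN vector with induction raised 3 (IL6R, OSMR, SOCS3), against 18.4% called higher and 17.2% called lower. The interaction was positive for IL6 and negative for LIF, where 0.291% of all genes were called with a positive and 0.826% with a negative interaction. With so few genes these shares are a description. The comparisons share groups and are not independent of each other.

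**Figure D1:**
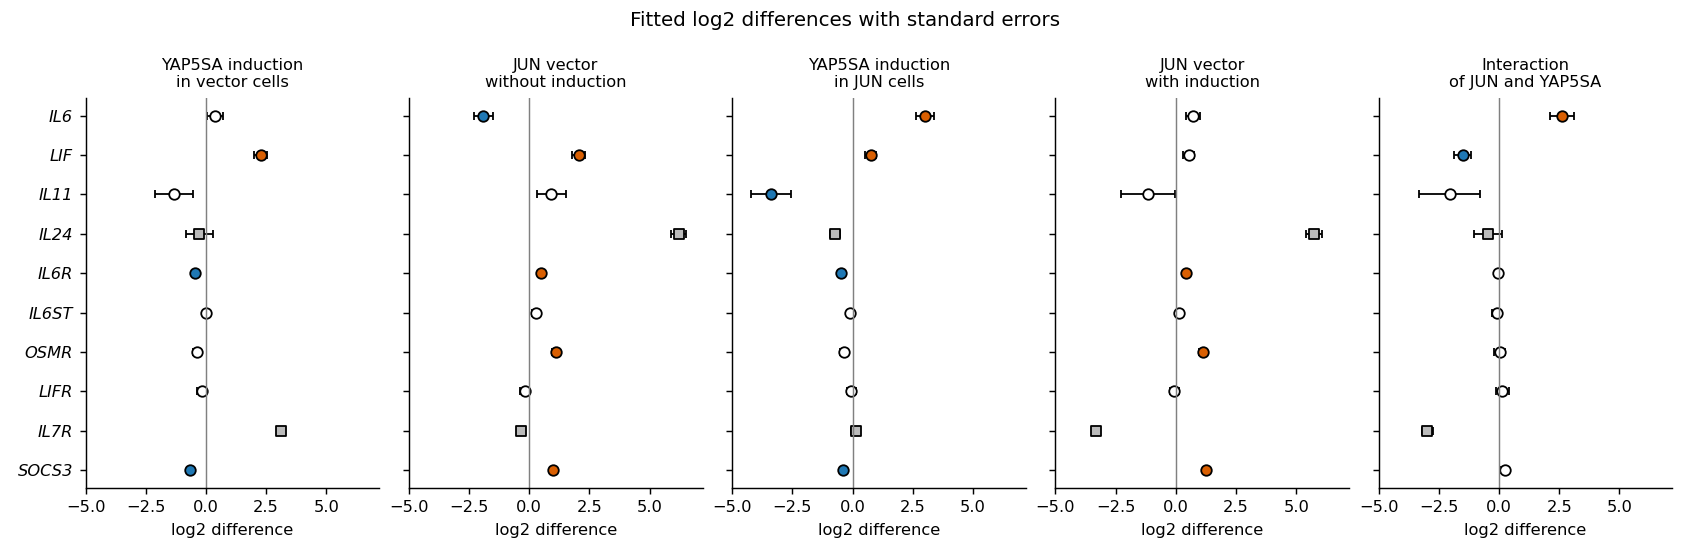
Fitted log2 differences (horizontal axis) of the 10 genes (vertical axis) in the 5 comparisons, with bars of 1 standard error. Orange circles were called higher, blue circles lower and white circles were not called, and grey squares are the untested IL24 and IL7R. IL24 sits at 6.20 and 5.74 in the 2 JUN comparisons, IL7R at 3.11 in the induction of vector cells and 0.13 in that of JUN cells, and IL6 moves left without induction and right in the interaction. The IL11 values rest on few counts.

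Of the 10 genes 9 had an entry among the RefSeq promoters (GRCh38.p14), with 12 start sites in all, and LIF had none. The 250 bases before the start site were searched on both strands. The motifs were TGANTCA for AP-1, GGAATG for TEAD, the DNA-binding partner of YAP, and TTCNNNGAA for STAT. The NF-kappaB consensus and TTGCNNAA for C/EBP were added after the sequences were seen. All matches in IL6 and OSMR are of these added motifs and are only a description. In the order given, the motifs are present in 6.57%, 11.9%, 6.57%, 1.26% and 9.05% of all 35116 windows of this length. The sequences of the 6 genes that differed most between the groups or in which a match was found beside a called change are printed 5′ to 3′ with each match in capitals.
IL6, chr7:22726950-22727199, plus strand: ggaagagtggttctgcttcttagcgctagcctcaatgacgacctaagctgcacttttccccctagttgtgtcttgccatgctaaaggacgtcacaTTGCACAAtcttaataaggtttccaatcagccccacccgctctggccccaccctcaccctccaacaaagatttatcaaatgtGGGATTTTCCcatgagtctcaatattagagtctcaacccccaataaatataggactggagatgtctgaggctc
IL11, chr19:55370464-55370713, minus strand: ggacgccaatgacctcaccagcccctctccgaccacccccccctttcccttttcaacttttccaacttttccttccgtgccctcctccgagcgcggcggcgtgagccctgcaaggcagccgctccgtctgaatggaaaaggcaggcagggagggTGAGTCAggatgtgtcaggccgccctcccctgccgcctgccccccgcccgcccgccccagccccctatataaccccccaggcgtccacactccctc
IL24, chr1:206897193-206897442, plus strand: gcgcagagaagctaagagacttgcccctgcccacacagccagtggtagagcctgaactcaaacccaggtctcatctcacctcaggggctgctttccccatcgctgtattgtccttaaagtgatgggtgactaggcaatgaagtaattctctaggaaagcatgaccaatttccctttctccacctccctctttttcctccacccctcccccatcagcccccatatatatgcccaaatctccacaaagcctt
IL7R, chr5:35856641-35856890, plus strand: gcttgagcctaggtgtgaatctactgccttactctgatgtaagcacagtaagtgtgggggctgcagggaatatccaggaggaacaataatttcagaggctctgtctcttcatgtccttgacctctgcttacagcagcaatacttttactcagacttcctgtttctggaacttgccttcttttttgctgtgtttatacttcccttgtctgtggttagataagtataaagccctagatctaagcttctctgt
OSMR, chr5:38845762-38846011, plus strand: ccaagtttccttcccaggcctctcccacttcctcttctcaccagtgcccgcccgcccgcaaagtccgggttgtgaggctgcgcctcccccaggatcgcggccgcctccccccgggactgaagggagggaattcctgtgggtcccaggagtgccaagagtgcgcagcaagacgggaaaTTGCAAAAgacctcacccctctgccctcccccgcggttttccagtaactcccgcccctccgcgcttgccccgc
SOCS3, chr17:78360926-78361175, minus strand: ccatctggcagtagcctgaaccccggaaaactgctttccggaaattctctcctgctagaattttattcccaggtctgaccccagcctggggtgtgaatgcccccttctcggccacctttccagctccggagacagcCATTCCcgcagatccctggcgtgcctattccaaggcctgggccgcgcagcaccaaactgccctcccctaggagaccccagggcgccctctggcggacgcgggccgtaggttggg

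The IL6 window held a C/EBP match from -155 to -148 and an NF-kappaB match from -73 to -64, counted from the start site. The IL11 window held the AP-1 match TGAGTCA from -96 to -90, and it was the only AP-1 match in the 12 windows. OSMR held a C/EBP match from -73 to -66 and the upstream start site of SOCS3 a TEAD match from -114 to -109. LIFR, whose RNA was not called in any comparison, held STAT matches at 2 of its 3 start sites, a TEAD match at the first and a C/EBP match at the second. None of the 5 motifs occurred in the windows of IL24, IL7R, IL6R and IL6ST. A match is only a run of letters and says nothing on binding in these cells, and the absence of a match concerns this window alone.

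IL6, the founding cytokine of the family, was lower with the JUN vector without induction and higher with the induction in JUN cells. IL6 (Entrez gene 3569, plus strand of chromosome 7, GRCh37 positions 22765503 to 22771621) gave 2.70, 1.70 and 1.08 CPM for the vector EtOH libraries, 3.05, 2.43 and 1.69 for vector Dox, 0.528, 0.379 and 0.563 for JUN EtOH and 5.12, 3.50 and 3.27 for JUN Dox. JUN EtOH lay below every other group and JUN Dox above every other group, while the vector groups overlapped. Means were 1.82 ± 0.82, 2.39 ± 0.68, 0.490 ± 0.098 and 3.96 ± 1.01 CPM. The JUN vector lowered IL6 by 3.75-fold without induction (log2 -1.91, SE 0.39, edgeR adjusted p 0.00166). The induction changed it by 0.37 on the log2 scale in vector cells (SE 0.32, edgeR adjusted p 0.417) and raised it 7.99-fold in JUN cells (SE 0.37 on the log2 scale, edgeR adjusted p 4.55e-05).

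The IL6 inductions differed by 2.63 on the log2 scale (SE 0.50, edgeR adjusted p 0.0151). Without JUN EtOH replicate 2 the difference was 2.47 and no longer passed (edgeR adjusted p 0.0628). In induced cells the JUN vector gave a log2 difference of 0.72 (SE 0.30, edgeR adjusted p 0.0746), with 3 of 3 JUN Dox libraries above vector Dox, and without vector Dox replicate 1 it was 0.94 and passed (edgeR adjusted p 0.0437). Counts of IL6 were 9 to 12 in JUN EtOH and 24 to 102 in the other libraries. STEAP1B on the opposite strand shares 46 exonic bases with IL6, at a mean of 17.6 counts against 50.2 for IL6, and counting without strand would assign shared reads to both. The antisense gene IL6-AS1, not analysed here, shares 428 exonic bases, and its reads could not be told apart from those of IL6.

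LIF, which signals through LIFR and gp130, rose with the induction alone and with the JUN vector alone. LIF (Entrez gene 3976, minus strand of chromosome 22, GRCh37 positions 30636442 to 30642748) gave 11.5, 6.69 and 9.24 CPM for the vector EtOH libraries, 50.5, 41.7 and 40.7 for vector Dox, 51.1, 33.5 and 29.4 for JUN EtOH and 88.5, 50.8 and 53.2 for JUN Dox. All libraries with JUN, YAP5SA or both lay above vector EtOH, and replicate 1 was the highest of its group in all 4 groups. Means were 9.14 ± 2.40, 44.3 ± 5.38, 38.0 ± 11.6 and 64.2 ± 21.2 CPM. The induction in vector cells raised LIF 4.82-fold (log2 2.27, SE 0.25, edgeR adjusted p 9.91e-06), and the JUN vector without induction raised it 4.13-fold (log2 2.05, SE 0.25, edgeR adjusted p 2.52e-05).

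With either factor already present, the second added less to LIF. The induction in JUN cells gave a log2 difference of 0.75 (SE 0.23, edgeR adjusted p 0.0324), and the JUN Dox and JUN EtOH libraries overlapped. Without JUN Dox replicate 1 this value was 0.45 (edgeR adjusted p 0.154), without JUN EtOH replicate 2 it was 0.67 (edgeR adjusted p 0.126) and without JUN EtOH replicate 3 it was 0.60 (edgeR adjusted p 0.128). It also missed the threshold with no filter on low counts (edgeR adjusted p 0.089) and with only the libraries of the comparison (edgeR adjusted p 0.0614). The JUN vector with induction gave 0.53 (SE 0.23, edgeR adjusted p 0.0873), with 3 of 3 libraries above vector Dox. The interaction was -1.51 (SE 0.34, edgeR adjusted p 0.0463). It lay just inside the threshold and missed it in 11 of the alternatives, with values of -1.60 to -1.24 and an edgeR adjusted p of up to 0.144. Leaving out any single library missed it apart from vector EtOH replicate 1, JUN EtOH replicate 3 and JUN Dox replicate 1.

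IL11, a further gp130 cytokine, was close to the detection limit. IL11 (Entrez gene 3589, minus strand of chromosome 19, GRCh37 positions 55875750 to 55881831) gave 4, 4 and 10 counts for the vector EtOH libraries, 4, 1 and 2 for vector Dox, 9, 15 and 10 for JUN EtOH and 3, 0 and 0 for JUN Dox. The lowest JUN EtOH library lay above every JUN Dox library. In JUN EtOH 34 counts summed over the libraries stood against 3 in JUN Dox, a ratio of 12.1 at equal depth with an exact 95% interval of 3.79 to 61.4, which covers counting error only. The fall with induction in JUN cells was called (edgeR adjusted p 0.00924). IL11 reached the filter's minimum count of 10 only in vector EtOH replicate 3 and JUN EtOH replicates 2 and 3. It was thus tested mainly through its highest group, and the call is to be read with that limit. In a fit of only the JUN EtOH and JUN Dox libraries IL11 did not pass the filter and was not tested. In vector cells the sums were 18 and 7, a ratio of 2.64 (exact 95% interval 1.05 to 7.47), and this difference was not called (edgeR adjusted p 0.228).

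**Figure D2:**
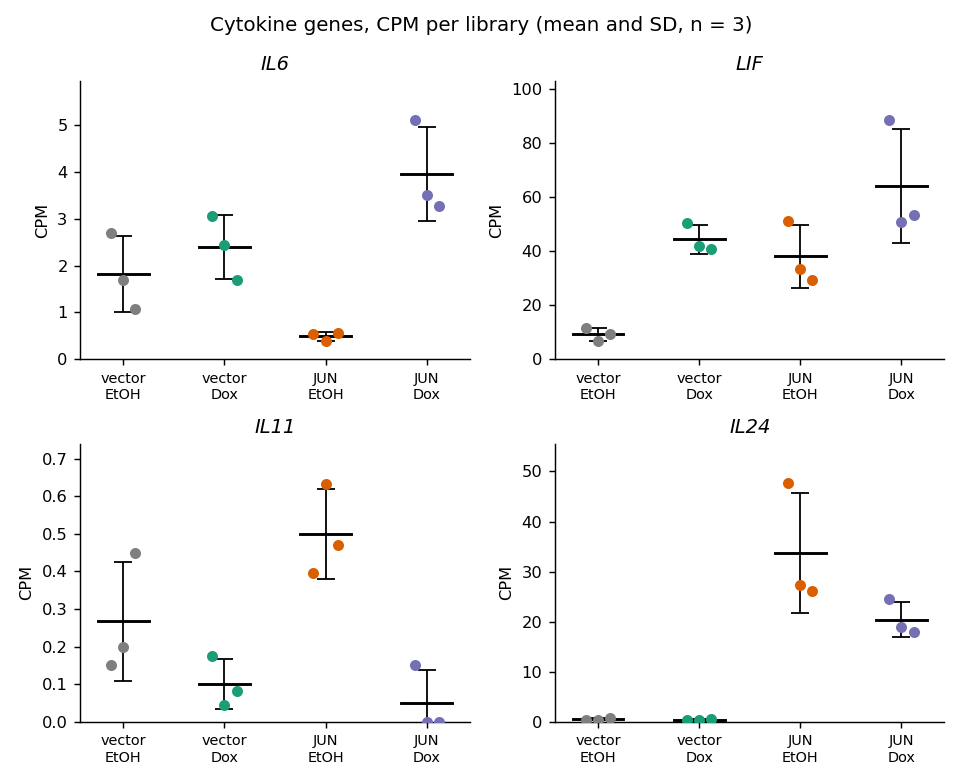
CPM (vertical axis, linear, from 0, a scale of its own in each panel) of the 4 cytokine genes in each of the 12 libraries, by group. Points are libraries, and lines with bars are the mean and SD. IL6 is lowest in JUN EtOH (0.490) and highest in JUN Dox (3.96), LIF is lowest in vector EtOH (9.14), IL11 stays under 1 CPM throughout, and IL24 stays under 1 CPM in vector cells.

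Among the receptor chains, IL6R was lower with the induction and higher with the JUN vector. IL6R (Entrez gene 3570, plus strand of chromosome 1, GRCh37 positions 154377669 to 154441926) gave 68.6, 76.7 and 76.0 CPM for the vector EtOH libraries, 54.0, 58.4 and 49.6 for vector Dox, 103.2, 108.6 and 97.1 for JUN EtOH and 70.5, 72.5 and 75.7 for JUN Dox. Vector Dox lay below and JUN EtOH above all other libraries, and JUN Dox lay within the range of vector EtOH. The induction lowered IL6R by 1.36-fold in vector cells (log2 -0.45, SE 0.092, edgeR adjusted p 0.00191) and by 1.41-fold in JUN cells (log2 -0.50, SE 0.092, edgeR adjusted p 0.00133). The JUN vector raised it 1.40-fold without induction (edgeR adjusted p 0.000943) and 1.35-fold with it (edgeR adjusted p 0.0023). The interaction was -0.049 (SE 0.13, edgeR adjusted p 0.976).

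OSMR followed the JUN vector. OSMR (Entrez gene 9180, plus strand of chromosome 5, GRCh37 positions 38845960 to 38945698) gave 127.7, 96.7 and 111.1 CPM for the vector EtOH libraries, 75.0, 100.6 and 82.8 for vector Dox, 284.9, 233.8 and 199.0 for JUN EtOH and 221.0, 176.0 and 162.5 for JUN Dox. Every JUN library lay above every vector library, while the Dox and EtOH libraries overlapped in both backgrounds. The JUN vector raised OSMR 2.14-fold without induction (log2 1.10, SE 0.16, edgeR adjusted p 0.000102) and 2.16-fold with it (log2 1.11, SE 0.16, edgeR adjusted p 8.69e-05). The induction gave -0.38 on the log2 scale in vector cells (SE 0.16, edgeR adjusted p 0.0873) and -0.36 in JUN cells (SE 0.16, edgeR adjusted p 0.122). Without JUN Dox replicate 1 both values passed, at -0.40 (edgeR adjusted p 0.0477) and -0.50 (edgeR adjusted p 0.0397), and without vector Dox replicate 2 the first was -0.51 (edgeR adjusted p 0.0365). RICTOR on the opposite strand shares 229 exonic bases with OSMR, at a mean of 594.5 counts against 3586.7 for OSMR.

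The shared chain IL6ST was called in none of the comparisons. IL6ST (Entrez gene 3572, minus strand of chromosome 5, GRCh37 positions 55230923 to 55290850) had means of 291.7 ± 34.6 CPM for vector EtOH, 295.0 ± 49.0 for vector Dox, 349.2 ± 11.9 for JUN EtOH and 327.9 ± 32.6 for JUN Dox. Its libraries ran from 254.8 to 362.8 CPM, and the JUN EtOH libraries (341.1 to 362.8) lay above those of vector EtOH (271.0 to 331.6). The largest of its log2 differences was 0.26 (SE 0.13, edgeR adjusted p 0.123), for the JUN vector without induction, and this value passed in a fit of only the libraries of the comparison (edgeR adjusted p 0.0341). LIFR (Entrez gene 3977, minus strand of chromosome 5, GRCh37 positions 38474770 to 38608456) had 15.7 ± 0.70, 14.0 ± 4.31, 13.8 ± 1.09 and 13.4 ± 2.47 CPM in the same order. Its log2 differences ran from -0.19 to 0.12 with standard errors of 0.19 to 0.27, and edgeR adjusted p-values were 0.465 to 0.971. Vector Dox replicate 1 had 9.24 CPM of LIFR, the lowest of all libraries. Antisense genes not analysed here share 797 exonic bases with IL6ST and 629 with LIFR.

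SOCS3, the STAT3-induced inhibitor of gp130, was higher with the JUN vector and lower with the induction. SOCS3 (Entrez gene 9021, minus strand of chromosome 17, GRCh37 positions 76352859 to 76356158) gave 16.1, 16.2 and 15.2 CPM for the vector EtOH libraries, 9.11, 10.7 and 10.2 for vector Dox, 36.7, 30.0 and 27.6 for JUN EtOH and 20.9, 25.4 and 24.7 for JUN Dox. The 4 groups did not overlap. The JUN vector raised SOCS3 1.99-fold without induction (log2 0.99, SE 0.12, edgeR adjusted p 2.61e-05) and 2.36-fold with it (log2 1.24, SE 0.13, edgeR adjusted p 3.69e-06). The induction lowered it by 1.58-fold in vector cells (log2 -0.66, SE 0.13, edgeR adjusted p 0.0013) and by 1.33-fold in JUN cells (log2 -0.41, SE 0.12, edgeR adjusted p 0.0254). The fall in JUN cells missed the threshold without JUN EtOH replicate 1 (-0.28, edgeR adjusted p 0.154), JUN EtOH replicate 2 (-0.44, edgeR adjusted p 0.0516) or JUN Dox replicate 1 (-0.33, edgeR adjusted p 0.0772). The interaction was 0.25 (SE 0.18, edgeR adjusted p 0.799).

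**Figure D3:**
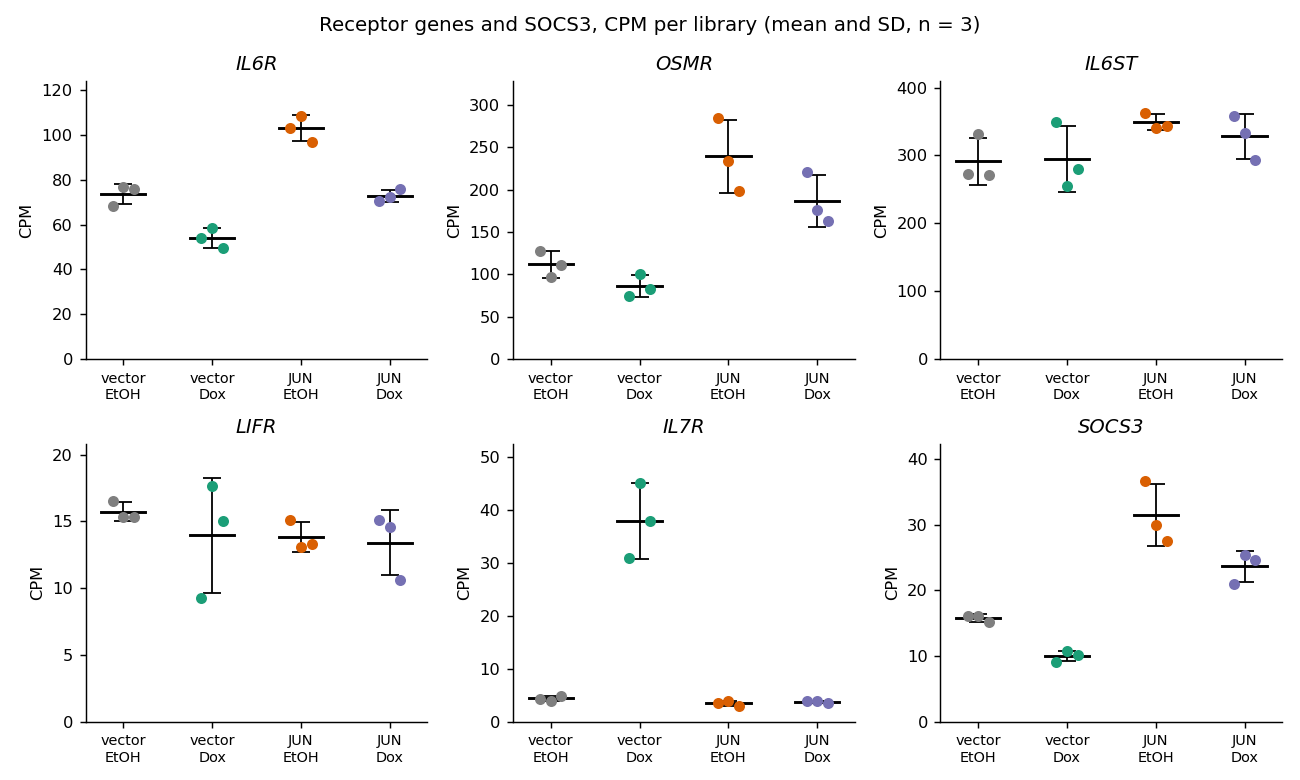
CPM (vertical axis, linear, from 0, a scale of its own in each panel) of the 5 receptor genes and SOCS3 in each of the 12 libraries, by group. Points are libraries, and lines with bars are the mean and SD. OSMR and SOCS3 are higher in JUN cells, IL6R is lowest in vector Dox and highest in JUN EtOH, IL6ST and LIFR overlap in most pairs of groups, and IL7R is high in vector Dox (38.0) and under 5 CPM in the other groups.

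IL24, a cytokine of the IL20 subfamily that signals through IL20RB with IL20RA or IL22RA1, was detected at a few counts in vector cells and at 438 to 1082 counts per library in JUN cells. IL24 (Entrez gene 11009, plus strand of chromosome 1, GRCh37 positions 207070788 to 207077484) gave 0.304, 0.399 and 0.673 CPM for the vector EtOH libraries, 0.262, 0.361 and 0.496 for vector Dox, 47.6, 27.3 and 26.2 for JUN EtOH and 24.4, 18.9 and 17.9 for JUN Dox. The vector groups overlapped, and JUN EtOH lay above JUN Dox in 3 of 3 libraries. The log2 difference between JUN and vector cells was 6.20 (SE 0.32) without induction and 5.74 (SE 0.33) with it. The induction gave -0.27 (SE 0.54) in vector cells, a value that was 0.11 without vector EtOH replicate 3, and -0.73 (SE 0.21) in JUN cells.

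The last 823 bases of IL24 (GRCh37 chromosome 1, 207076662 to 207077484) are exonic in FCMR as well, an Fc receptor gene on the opposite strand. The kit did not mark strand, so reads in this stretch cannot be told apart, and both values are uncertain there. FCMR had 2.50 ± 0.58 and 2.51 ± 0.88 CPM in the vector groups, EtOH and Dox, and 18.8 ± 4.94 and 12.5 ± 1.14 CPM in the JUN groups. It was higher with the JUN vector by 2.89 on the log2 scale without induction (SE 0.24) and by 2.30 with it (SE 0.24), and since its row may hold IL24 reads these values are a description as well. In JUN EtOH IL24 had 2288 counts against 1276 for FCMR, and in JUN Dox 1428 against 877, so at least 1012 and 551 counts of IL24 were not shared with FCMR. In vector EtOH IL24 had 31 counts against 175, and in vector Dox 26 against 174, and there all IL24 counts could be shared.

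IL7R, which with the common gamma chain forms the IL7 receptor and with CRLF2 the TSLP receptor, was high in vector Dox and low elsewhere. IL7R (Entrez gene 3575, plus strand of chromosome 5, GRCh37 positions 35852797 to 35879705) gave 4.37, 3.94 and 4.89 CPM for the vector EtOH libraries, 30.9, 45.2 and 38.0 for vector Dox, 3.61, 3.84 and 2.91 for JUN EtOH and 3.86, 3.89 and 3.59 for JUN Dox. Each vector Dox library had more than 6 times the level of any library of the other groups. The log2 difference on induction was 3.11 (SE 0.16) in vector cells and 0.13 (SE 0.17) in JUN cells, and the interaction was -2.98 (SE 0.23). The JUN vector gave -0.35 (SE 0.17) without induction and -3.33 (SE 0.16) with it. IL7 itself had 11.8 to 13.7 CPM as group means, while IL2RG, the common gamma chain, was under 0.4 CPM in every group and the ligand TSLP under 0.1 CPM.

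Per kilobase of exon, with all annotated exons of a gene merged, IL6ST, OSMR and IL6R led in vector EtOH. The merged length can exceed that of the transcript present, and junction reads were largely lost. The order between genes is therefore approximate. IL6ST had a level of 24.2 CPM per kb, OSMR 15.6, IL6R 10.5, SOCS3 5.78, LIF 2.36, LIFR 1.29, IL7R 0.731, IL6 0.422, IL24 0.232 and IL11 0.0996. The libraries of neighbouring genes in this order overlapped only between IL6 and IL24 and between IL24 and IL11. In JUN Dox the order was IL6ST 27.2, OSMR 25.99, LIF 16.6, IL6R 10.4, IL24 10.3, SOCS3 8.65, LIFR 1.10, IL6 0.917, IL7R 0.628 and IL11 0.0187 CPM per kb. Here OSMR overlapped its neighbours IL6ST and LIF, IL24 overlapped IL6R and SOCS3, and LIFR overlapped IL6, while the other neighbours were apart. In vector Dox LIF (11.5 CPM per kb) overlapped OSMR (12.01) and IL7R (6.32) overlapped IL6R (7.72). In JUN EtOH IL24 (17.0) overlapped IL6R (14.7), and IL6 (0.113) was the lowest of the 10.

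The genes most like 5 of the members were sought among 13359 genes by the root mean square difference of the 4 centred group means of log2 CPM. For IL24 these were AQP9 (0.056) and ALDH1A2 (0.11), which lie on opposite strands, share 354 exonic bases and may share reads. AQP9 had 0.305, 0.242, 24.7 and 14.7 CPM. For IL7R they were NUAK2 (0.40) and CGN (0.46), and NUAK2 had 12.04, 64.5, 9.66 and 14.4 CPM. For IL6 they were PTGER4 (0.35) and KLF2 (0.55), and PTGER4, a receptor for prostaglandin E, had 4.73, 9.88, 2.51 and 10.4 CPM. For LIF they were CFAP58 (0.046) and PEAR1 (0.15), both at 2.225 CPM or less, and for IL11 NFIL3 (0.28) and SLC26A2 (0.28). All values are group means, those of the vector cells (EtOH, Dox) before those of the JUN cells.

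The remaining genes of the pathway were read from 6 lists of 84 genes, of which 60 passed the filter. In vector cells the induction raised 5 and lowered 25 of them, with a median log2 difference of -0.36 (0.0072 over all genes), where 15.6% of all genes were called higher and 14.4% lower. In JUN cells it raised 1 and lowered 22, with a median of -0.27 (0.0032 over all genes), where 11.2% of all genes were called higher and 10.3% lower. The JUN vector raised 13 and lowered 12 without induction (median 0.078, 0.00056 over all genes), near the 20.1% and 18.9% of all genes called. With induction it raised 21 and lowered 11 (median 0.098, 0.0030 over all genes), where 18.4% and 17.2% of all genes were called. The interaction was called positive for 1 of the 60 (BCL3) and negative for 1 (PIM1). Over all genes 0.291% were called with a positive and 0.826% with a negative interaction.

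Of the 14 tested genes of the list of known STAT3 targets, the induction lowered 10 and raised 2 in vector cells, at a median log2 difference of -0.64, and lowered 9 in JUN cells, at a median of -0.66. Over all genes 14.4% were lower and 15.6% higher in vector cells and 10.3% lower in JUN cells. The transcriptional cofactor BCL3 fell from 44.5 ± 5.03 to 11.4 ± 1.63 CPM in vector cells (log2 -1.97, SE 0.13, edgeR adjusted p 5.4e-08). The repressor BCL6 fell from 20.9 ± 2.08 to 6.37 ± 0.74 CPM in vector cells (log2 -1.71, SE 0.13) and from 24.3 ± 3.07 to 9.26 ± 0.57 in JUN cells (log2 -1.39, SE 0.13). CEBPB, which drives acute-phase genes, fell from 554.6 ± 18.8 to 201.4 ± 14.3 CPM in JUN cells (log2 -1.46, SE 0.10, edgeR adjusted p 2.27e-07).

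With the JUN vector 2 STAT3 target genes were higher and 4 lower without induction, near the shares of all genes (20.1% and 18.9%), and 6 were higher and 6 lower with it (18.4% and 17.2% of all genes). LCN2, an iron-binding acute-phase protein, rose from 0.997 ± 0.27 to 16.1 ± 1.52 CPM without induction (log2 4.01, SE 0.25, edgeR adjusted p 2.93e-08) and was 3.73 higher with it (SE 0.25). TIMP1, an inhibitor of matrix metalloproteinases, fell from 1458 ± 82.1 to 414.9 ± 61.4 CPM (log2 -1.81, SE 0.18, edgeR adjusted p 2.92e-06). In induced cells the acute-phase gene SAA1 was 820.9 ± 369 CPM with the empty vector and 223.2 ± 44.5 with JUN (log2 -1.88, SE 0.26, edgeR adjusted p 6.35e-05). The kinase gene PIM1 had 14.0 ± 0.88, 28.8 ± 2.11, 13.3 ± 1.48 and 14.6 ± 1.07 CPM for vector EtOH, vector Dox, then JUN EtOH and JUN Dox, with an interaction of -0.91 (SE 0.16, edgeR adjusted p 0.00967). The interaction of BCL3 was 0.97 (SE 0.18, edgeR adjusted p 0.0135), and without JUN EtOH replicate 2 it was 0.92 and missed the threshold (edgeR adjusted p 0.0531).

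Among 14 genes of the JAK, STAT and SHP2 relay, the JUN vector raised 5 without and 5 with induction, where 20.1% and 18.4% of all genes were called higher. STAT4 rose most, from 2.22 ± 0.41 to 14.98 ± 1.62 CPM without induction (log2 2.75, SE 0.19, edgeR adjusted p 6.99e-08) and by 1.97 with it (SE 0.20). STAT2, which carries interferon signals, rose by 0.85 (SE 0.13) and 0.87 (SE 0.14). The induction lowered 4 of the 14 in vector cells and 5 in JUN cells and raised 1 in vector cells, where 14.4% and 10.3% of all genes were lower and 15.6% were higher in vector cells. STAT6 fell from 115.2 ± 5.19 to 76.3 ± 6.76 CPM in vector cells (log2 -0.60, SE 0.091, edgeR adjusted p 0.000169), and STAT4 from 14.98 ± 1.62 to 6.56 ± 0.39 CPM in JUN cells (log2 -1.19, SE 0.17, edgeR adjusted p 0.000164). STAT3 fell from 237.0 ± 11.8 to 181.0 ± 8.59 CPM in vector cells (log2 -0.39, edgeR adjusted p 0.00355). In JUN cells it fell from 217.5 ± 10.0 to 176.5 ± 2.91 CPM (log2 -0.30, edgeR adjusted p 0.0225).

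Of 14 further inhibitors, the induction lowered 5 and raised 1 in vector cells and lowered 2 and raised 1 in JUN cells, and the JUN vector raised 2 and lowered 2 without induction and raised 4 and lowered 1 with it. The shares of all genes called in these comparisons were 14.4% lower and 15.6% higher, 10.3% and 11.2%, 20.1% higher and 18.9% lower, and 18.4% and 17.2%, in the order given. SOCS1, a relative of SOCS3 that blocks JAK kinases, moved in the same directions as SOCS3 and passed in all 4 pairwise comparisons. Its level was 0.626 ± 0.31 CPM for vector EtOH, 0.042 ± 0.041 for vector Dox, 7.81 ± 0.66 for JUN EtOH and 2.84 ± 0.42 for JUN Dox. In vector Dox it had 3 counts in all against 199 in JUN Dox, a ratio of 66.4 at equal depth (exact 95% interval 22.4 to 324.8, counting error only). CISH, a STAT5-induced inhibitor, moved the other way with JUN, from 3.77 ± 0.67 to 0.790 ± 0.20 CPM without induction (log2 -2.23, SE 0.25, edgeR adjusted p 1e-05). SOCS2 rose with induction in JUN cells from 15.9 ± 0.26 to 29.6 ± 2.13 CPM (log2 0.90, SE 0.098, edgeR adjusted p 1.36e-05).

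Of the other IL6-family genes 7 of 12 were tested. The induction lowered 2 and raised 1 in vector cells and lowered 2 in JUN cells, and the JUN vector raised 2 and lowered 2 without induction and raised 3 and lowered 2 with it. With 7 genes, counts of 1 or 2 are near the shares of all genes, which were 10.3% to 20.1% per direction. IL31RA, which pairs with OSMR in the IL31 receptor, rose with the JUN vector from 7.199 ± 0.79 to 17.7 ± 0.97 CPM without induction (log2 1.29, SE 0.12, edgeR adjusted p 1.25e-06) and from 3.69 ± 0.23 to 12.8 ± 0.51 with it (log2 1.79, SE 0.13). The ligand gene CLCF1 rose from 4.64 ± 0.23 to 8.34 ± 1.78 CPM with induction in vector cells (log2 0.84, SE 0.18, edgeR adjusted p 0.00215). OSM, the ligand of OSMR, was at or under 0.044 CPM as a group mean in all groups.

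In the IL10 and IL20 family 6 of 12 genes were tested, and the induction lowered 3 in vector cells and 3 in JUN cells, while the JUN vector raised 1 and lowered 3 without induction and raised 2 and lowered 2 with it. Over all genes 14.4% and 10.3% were lowered by the induction, and the JUN vector raised 20.1% and lowered 18.9% without it and raised 18.4% and lowered 17.2% with it. IL20RB, a chain of the IL24 receptor, fell from 59.0 ± 5.10 to 34.3 ± 4.59 CPM with induction in vector cells (log2 -0.78, SE 0.11, edgeR adjusted p 7.54e-05). IL22RA1, the alternative partner chain, fell there from 3.03 ± 0.13 to 1.25 ± 0.12 CPM (log2 -1.27, SE 0.21, edgeR adjusted p 0.000388). IFNLR1, the interferon lambda receptor, fell with the JUN vector from 3.73 ± 1.22 to 1.58 ± 0.28 CPM without induction (log2 -1.25, SE 0.25, edgeR adjusted p 0.0014).

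In the list of IL7, TSLP and common gamma chain genes 5 of 12 were tested. The induction lowered 1 in vector cells and 1 in JUN cells, and the JUN vector raised 1 and lowered 1 without induction and raised 1 with it. Counts of 1 in 5 genes are near the shares of all genes (10.3% to 20.1% per direction). IL13RA1 fell with induction in vector cells (log2 -0.53, SE 0.12, edgeR adjusted p 0.00479) and in JUN cells (log2 -0.56, SE 0.12, edgeR adjusted p 0.00427), and rose with the JUN vector by 0.70 (SE 0.12) and 0.67 (SE 0.12). The other called gene was CRLF2 at about 1406 CPM in vector EtOH, a call that was lost without JUN EtOH replicate 1 (edgeR adjusted p 0.0598), and its counts were 1.046 to 1.057 times those of SLC25A6 in every library, so its row may hold reads of that gene and its value is uncertain.

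**Figure D4:**
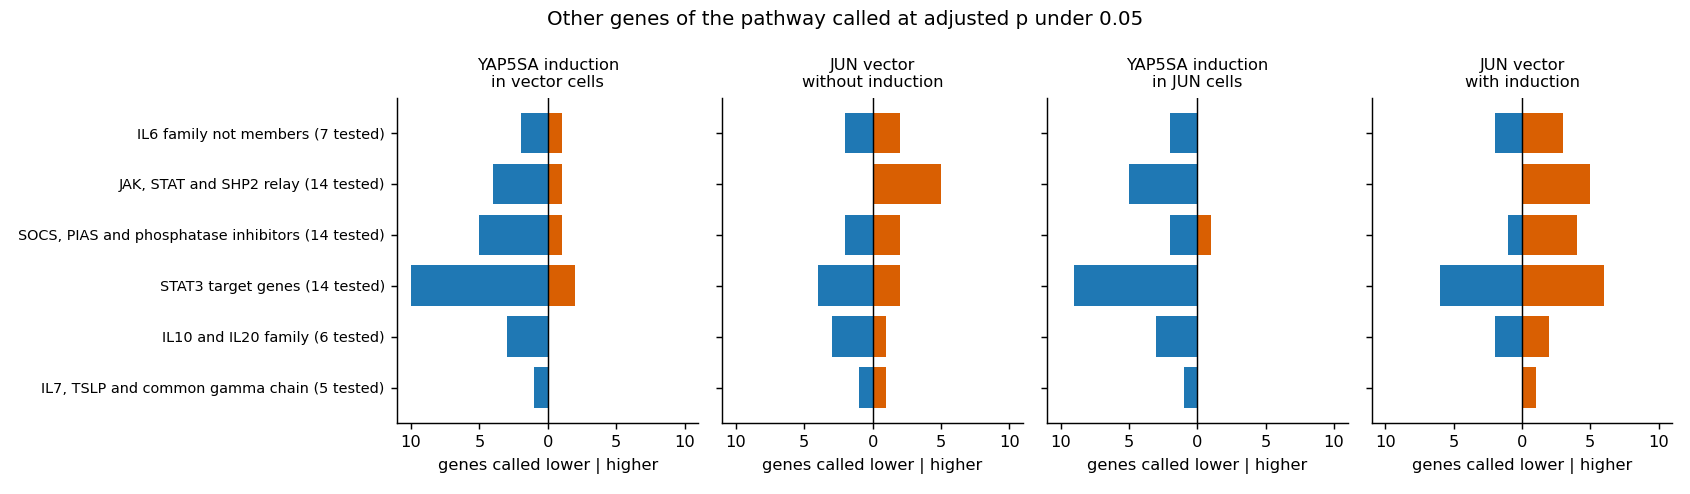
Number of genes called higher (orange, to the right) and lower (blue, to the left) at an adjusted p under 0.05 in each of the 6 pathway lists (vertical axis, with the number tested) for the 4 pairwise comparisons. The induction lowered 10 and 9 of the 14 STAT3 target genes in vector and JUN cells, and the JUN vector raised 5 of the 14 relay genes with or without induction.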

How the data were processed

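RNA of 12 MCF10A libraries was measured by single-end sequencing of poly(A) RNA. The deposited values are unnormalized counts for 23459 Entrez IDs, which the authors made after trimming with Cutadapt 4.2 and alignment to hg19 with Bowtie2 2.3.5.1 per the submitters' processing notes, and counted with countOverlaps of GenomicRanges per the study's methods. Bowtie2 does not split reads over introns, so junction reads are largely lost. Gene annotation and use of strand are not given in the sources used here, and the kit is not strand-specific. Libraries were grouped by their titles. A RefSeq table gave symbols for 99.4% of the IDs, and positions are those of GENCODE v44lift37.

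Counts were tested with edgeR 4.0.16 under R 4.3.3 (TMM factors, filterByExpr with a minimum count of 10 and a total of 15, robust quasi-likelihood fit of all 12 libraries, 14775 genes, biological coefficient of variation 12.5%). Adjustment over all genes was by Benjamini-Hochberg, and each SE is the log2 difference over the square root of F. Levels of 3 counts or fewer were treated as the detection floor. Floors and count ratios (exact binomial interval, scipy 1.17.1) cover counting error only, as reads carried no molecular identifiers. P-values measure the spread between these libraries. The pipeline was run on simulated counts that had the same dispersion for every gene. No minimum recovery was required there for the interaction, so the run is no check on the power of that test.

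The 10 genes, the pathway and marker lists and the tests were chosen with earlier results of these data known. NF-kappaB and C/EBP were added to the motifs after the sequences were seen. Named list genes were, per list and comparison, at most the 2 called genes with the largest absolute log2 difference, of which a part is given and 1 gene is not reported here, and likeness was sought among genes at 1 CPM or more on average. PTPRC, CD14 and other markers, STAT3, TSLP, IL2RG, IL7, OSM and SLC25A6 were named after their values were seen. Alternatives were RLE and upper-quartile factors, DESeq2 1.42.0, no filter, a mean of at least 1 CPM, the replicate number as a block, only the libraries of a comparison, and each library left out.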

Additional observations from a re-analysis of the deposited data

Results flagged for a closer look

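The responses of 5 genes to the induction differed between JUN and vector cells, by the test of the interaction for 4 of them. Over all genes 0.291% were called with a positive and 0.826% with a negative interaction. IL6 had a log2 interaction of 2.63, LIF of -1.51, BCL3 of 0.97 and PIM1 of -0.91. IL7R had -2.98, and since it was chosen on this value the difference was not tested. Groups of 3 libraries were not examined for single stray libraries. LIF was highest in replicate 1 of every group.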

How the results depend on the processing

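Replicate numbers were not taken to pair the libraries, since not every same-numbered pair of different groups had correlated deviations. These correlations were -0.26 to 0.47 and exceeded 0.1 in 7 of 18 pairs, against 5 of 36 pairs with different numbers, all 6 pairs of number 3 were positive (0.074 to 0.47), and 7 of 12 libraries correlated best with one of their own number. With the replicate block, 5 in place of 3 genes were called for the JUN vector with induction, as IL6 (0.74, edgeR adjusted p 0.021) and LIF (0.49, edgeR adjusted p 0.0105) passed, and the block changed no other call of the 8 genes. Apart from the filtering of IL11, the cause was not tested for the changes that follow. For the induction in JUN cells 3 in place of 5 genes were called in a fit of only the libraries of the comparison. LIF missed the threshold there (edgeR adjusted p 0.0614). IL11 did not pass the filter there and was not tested, as only JUN EtOH replicates 2 and 3 reached the minimum count. Leaving out 1 library gave 3 to 5 calls for this induction. The interaction called 1 in place of 2 genes with upper-quartile factors and with no filter on low counts, and 0 to 2 when 1 library was left out, with 0 without JUN EtOH replicate 2.

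Reversals of sign occurred in values near 0 that were not called. IL6ST on induction in vector cells was -0.0327 with upper-quartile factors and -0.00584 with only the libraries of the comparison. Leaving out 1 library at a time gave -0.11 to 0.017 for IL6R in the interaction, -0.13 to 0.11 for IL6ST on induction in vector cells, -0.20 to 0.038 for IL6ST in the interaction, -0.11 to 0.16 for OSMR in the interaction, -0.38 to 0.046 for LIFR on induction in vector cells, -0.15 to 0.10 for LIFR on induction in JUN cells, -0.28 to 0.15 for LIFR with JUN under induction, -0.10 to 0.33 for LIFR in the interaction and -0.54 to 0.11 for IL24 on induction in vector cells. Of the values of the 10 genes under the alternatives, 882 were kept, 20 lost and 7 gained a call and 21 reversed. A kept value had the same direction and side of the threshold. For the untested IL24 and IL7R it had the same direction and moved by less than the gene's SD within groups. Alternatives in which a gene did not pass the filter, as for IL11, are not in these counts.

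Over all genes, the interaction was called for 165 and by DESeq2 for 340, and leaving out 1 library gave as few as 97. The JUN vector with induction called 5267 genes and 3439 with only the libraries of the comparison. The induction in JUN cells called 3168 genes and 2082 without JUN EtOH replicate 2, and the JUN vector without induction 5766 and 3823 without JUN EtOH replicate 1. Depth limits IL11, IL24 in vector cells and SOCS1 in vector Dox, which had few counts.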
